A study of Saccharomyces cerevisiae with 6 samples.

Results

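The *ATG* genes of budding yeast encode the machinery of autophagy, and their transcript levels were examined in cells held in meiotic prophase. Members were the rows of the deposited gene table whose gene name is *ATG* followed by a number, which gave 34 of 5297 genes (0.642%). mRNA had been sequenced from 6 libraries of diploid SK1 cells taken 4 h after transfer to sporulation medium, 3 from *SPO11* cultures and 3 from *spo11-YF* cultures. The series' design text gives 3 independent time courses, and the libraries of both strains share replicate numbers. *SPO11* cells make meiotic DNA breaks. *spo11-YF* cells make none, because their HA-tagged Spo11, marked with *URA3*, has phenylalanine in place of the tyrosine that cuts DNA. Both strains carry *pph3Δ::LEU2*, which removes a phosphatase that erases checkpoint phosphorylation, and *ndt80Δ::TRP1*, which prevents exit from prophase, in an *ho::LYS2 lys2* background. The paper also states that the *SPO11* cells carried more copies of *LEU2* than the *spo11-YF* cells. The question behind the study was how cells with breaks differ from cells without them. The deposited table gives for each gene a single mean over all libraries of both strains, besides the authors' own comparison, which is not used here. The strains are therefore not compared below, and the levels carry no error between cultures.

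In autophagy, a double membrane grows around cytoplasm or a chosen cargo, closes to form an autophagosome and fuses with the vacuole, where the contents are degraded. Starved yeast cells use it to recycle amino acids, and *atg* mutants of budding yeast sporulate poorly. The products of the *ATG* genes act in sequence. The Atg1 kinase complex starts the process, Atg9 vesicles and the lipid transfer protein Atg2 supply membrane, a phosphatidylinositol 3-kinase marks the site, and a pair of ubiquitin-like proteins, Atg8 and Atg12, are attached to their targets as the membrane expands. Receptors link particular cargoes to Atg8 and to the scaffold Atg11.

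Levels are given as the authors' mean normalized count, that is, read counts per gene after scaling each library for its depth. As a longer mRNA yields more fragments, genes were compared with each other per kilobase (kb) of coding sequence, with coding lengths from the S288C reference assembly R64. A length was found for all 34 *ATG* genes and for 5276 rows in all. The position of a gene is given as its percentile, the share of these 5276 genes with a lower level per kb. The mean normalized counts of all rows add up to 2759217, and the smallest in the table is 8.21. Depth per library is unknown. The state of the cells was checked with marker genes. Of 12 genes of meiotic prophase, 11 lay above the 75th percentile per kb, among them *DMC1*, the meiotic recombinase, at 7007 counts per kb, and *IME2*, a kinase of meiotic entry, at 5556. The median of 11 genes of middle meiosis, listed as driven by Ndt80, was 82.9 counts per kb, below the median gene. None lay above the 75th percentile, and only *SPS2* lay above the median gene, at 311.9 counts per kb. *NDT80* and *PPH3*, deleted in both strains, have no row among those analysed, whereas *SPO11*, which is mutated and not deleted in *spo11-YF* cells, has a mean normalized count of 1084.

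*ATG* transcripts were present at moderate levels, with a wide spread between genes. Together the 34 genes held 0.626% of all normalized counts. Their median was 229.1 counts per kb, against 165.03 for all genes, and 21 of the 34 (61.8%) lay above the median gene, where 50% of all genes lie by definition. Above the 75th percentile there were 12 *ATG* genes, and below the 25th there were 5. From *ATG10* at 26.8 to *ATG8* at 3579 counts per kb the levels spanned 133.8-fold. The standard deviation between genes was 1.43 on the log2 scale per kb, against 1.56 for all genes, so that the members of this machinery differed in level nearly as much as genes in general. As genes are not replicates, these counts and medians describe the libraries and were not tested. Without values per culture, the order of neighbouring genes could not be tested either. Several neighbours are nearly equal, such as *ATG22* and *ATG21* at 229.7 and 228.5 counts per kb.

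**Figure D1:**
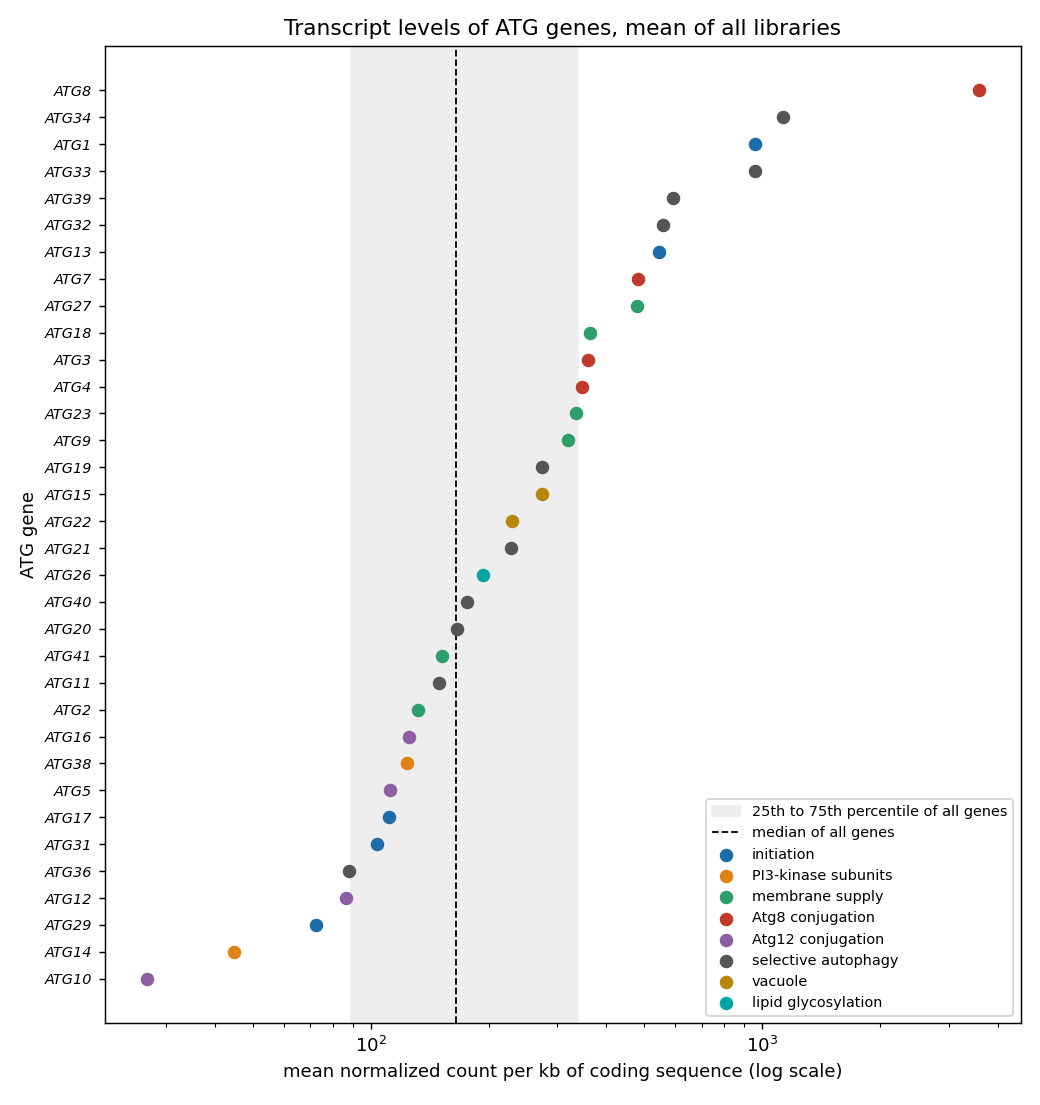
Mean normalized count per kb of coding sequence (log scale) for each of the 34 *ATG* genes, coloured by role; each point is the authors' mean over all 6 libraries, the grey band runs from the 25th to the 75th percentile of all genes and the dashed line their median of 165.03. *ATG8* stands apart at 3579 counts per kb, *ATG10* and *ATG14* lie lowest, and 21 genes lie right of the dashed line.

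The genes for the conjugation of Atg8 were high. Atg8 is a small ubiquitin-like protein that is joined to phosphatidylethanolamine on the growing membrane and is itself carried into the vacuole. *ATG8* (YBL078C, chromosome II) had a mean normalized count of 1267 over a coding length of only 354 bases, which is 3579 counts per kb. This placed it at percentile 99.0, rank 55 of all genes per kb and 21.7 times the median gene. It was 3.17 times as high per kb as *ATG34*, the next *ATG* gene. Per kb, *ATG8* alone made up 25.8% of the summed level of all 34 genes. By count without division by length, its share was 7.34%, and it was at percentile 92.1 and rank 3 of the *ATG* genes. The enzymes that process Atg8 lay close to each other. *ATG7*, the activating enzyme of both ubiquitin-like proteins, had 481.1 counts per kb, *ATG3*, the conjugating enzyme for Atg8, had 358.4, and *ATG4*, the protease that trims Atg8 and later releases it from the membrane, had 347.6. All 4 genes of this group lay above the median gene, and above the 75th percentile per kb, *ATG4* narrowly at percentile 75.8. With an effective length, which takes 200 bases off each coding length, *ATG4* was at percentile 72.5, and by count without division by length *ATG3* was at percentile 64.7. The level of *ATG8* was 7.44 to 10.3 times that of its enzymes per kb. As *ATG8* is short, this ratio depended on the length used, and it was 15.3 to 20.5 with the effective length and 1.39 to 3.79 by count.

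The genes that act only in the parallel system of Atg12 were low, whereas *ATG7*, which serves both systems, was described above. Atg12 is joined to Atg5 by the conjugating enzyme Atg10, and Atg16 binds the conjugate, which then promotes the attachment of Atg8. *ATG12* had 86.6 counts per kb, *ATG5* had 112.0 and *ATG16* had 125.2, a range of 1.45-fold between the subunits of the final complex. *ATG10* (YLL042C, chromosome XII) was the lowest of all *ATG* genes. Its mean normalized count of 13.5 is not far above the smallest value in the table, and its 26.8 counts per kb placed it at percentile 2.35. All 4 of these genes lay below the median gene per kb. With the effective length *ATG16* was at percentile 52.5 and the other 3 remained below the median. Between the conjugation systems, *ATG8* was 41.4 times as high per kb as *ATG12*, and *ATG3* was 13.4 times as high per kb as *ATG10*, although both conjugating enzymes receive their substrate from Atg7.

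Genes of the initiating kinase complex formed a high and a low set. *ATG1* (YGL180W, chromosome VII), which encodes the only protein kinase among the Atg proteins, had the largest mean normalized count of all members, 2584, or 15.0% of the counts of all *ATG* genes. This is 959.2 counts per kb, at percentile 92.9. *ATG13*, which encodes the regulatory subunit that is dephosphorylated when nutrients run out, had 1211 counts, or 546.0 per kb, at percentile 85.9. The remaining genes encode the scaffold that is used in starvation-induced autophagy, and all were below the median gene. *ATG17* had 111.7 counts per kb, *ATG31* had 104.0 and *ATG29* had 72.7, so that *ATG1* was 8.59 times as high per kb as *ATG17* and 13.2 times as high as *ATG29*. *ATG11*, the scaffold of selective autophagy, was also below the median gene per kb, at 149.9 counts per kb, and was 1.34 times as high as *ATG17*. By count without division by length, *ATG11* was at percentile 77.6 and *ATG17* at percentile 35.0, a ratio of 3.78. *ATG29* overlaps the neighbouring gene *SET6* in the S288C annotation, the only overlap of an *ATG* gene with an adjacent protein-coding gene. The libraries were strand-specific.

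The phosphatidylinositol 3-kinase genes that are particular to autophagy were low. *ATG14*, which directs the kinase to the site of autophagosome formation, had a mean normalized count of 46.3 and 44.8 counts per kb, at percentile 8.11. *ATG38*, which encodes a further subunit of the same complex, had 123.4 counts per kb. The kinase shares its catalytic core with endosomal sorting, and the shared genes varied. *VPS30*, also known as *ATG6*, had 289.4 counts per kb and *VPS34*, the lipid kinase, had 181.5, which were 6.46 and 4.05 times the level of *ATG14*. *VPS15*, the regulatory kinase subunit, had only 38.8 counts per kb, close to *ATG14*. These comparisons depended on length, as *VPS15* had a mean normalized count of 169.4 against 46.3 for *ATG14*. By count without division by length, *VPS30* and *VPS34* were 10.5 and 10.3 times as high as *ATG14*.

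Genes for the supply of membrane were at moderate levels and varied less than those of initiation. *ATG9* encodes the transmembrane protein that scrambles lipids between the leaflets, and it had a mean normalized count of 955.5, or 319.1 per kb, at percentile 73.0. *ATG2*, the lipid transfer protein and the longest member with 4779 coding bases, had 630.9 counts but only 132.0 per kb, at percentile 40.4. Its partner *ATG18*, which binds phosphatidylinositol 3-phosphate, had 362.5 counts per kb. *ATG23* and *ATG27*, which help to move Atg9, had 334.2 and 479.6 counts per kb, close to or above *ATG9* itself. By count without division by length, both were below *ATG9*, at 455.2 and 391.4. *ATG41*, also linked to Atg9 movement, had 152.1 counts per kb. The 6 genes of this group spanned 3.63-fold, against 13.2-fold for the 5 initiation genes.

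**Figure D2:**
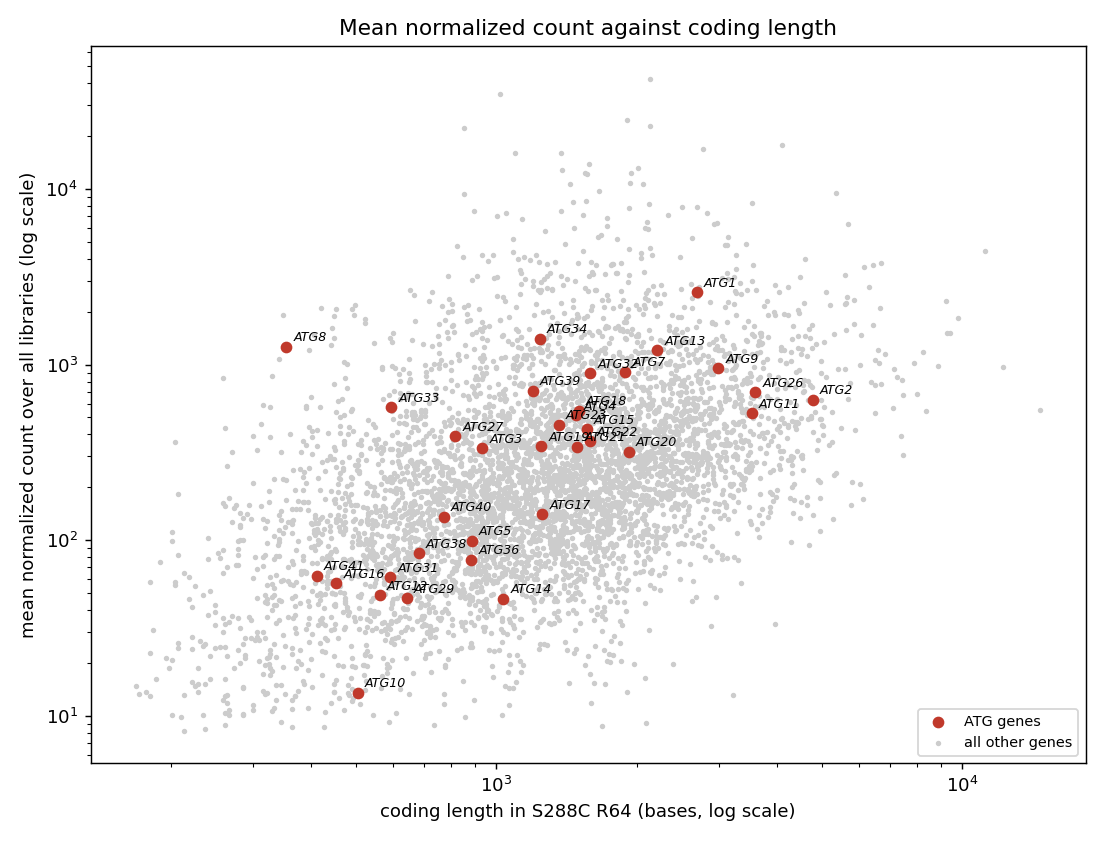
Mean normalized count over all 6 libraries against coding length in S288C R64 (both axes log scale) for the 34 *ATG* genes (red, labelled) and all other genes (grey). *ATG8* lies above most genes of similar length (22 of 1062 genes under 700 bases have a higher count), while the other *ATG* genes under 700 bases, apart from *ATG33*, lie below 100 counts.

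Among genes of selective autophagy, the receptors for different cargoes were at very different levels. *ATG39*, the receptor for perinuclear endoplasmic reticulum and parts of the nucleus, had a mean normalized count of 709.2 and 592.4 counts per kb, at percentile 87.4. *ATG40*, the receptor for the peripheral endoplasmic reticulum, had 136.0 counts and 176.3 per kb, so that *ATG39* was 3.36 times as high per kb. The mitophagy genes were both high. *ATG32*, the receptor on the mitochondrial outer membrane, had 889.7 counts and 559.6 per kb, and *ATG33*, another outer membrane protein used in mitophagy, had 958.8 per kb. *ATG36*, the receptor for peroxisomes, was low at 87.8 counts per kb, and *ATG32* was 6.37 times as high.

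*ATG34* and *ATG19* are paralogs and lie next to each other on chromosome XV, the only adjacent pair of *ATG* genes. Both receptors carry vacuolar enzymes, Atg19 the aminopeptidase Ape1 and the α-mannosidase Ams1 in the constitutive Cvt pathway, and Atg34 Ams1 during starvation. *ATG34* (YOL083W) had a mean normalized count of 1401, against 342.5 for *ATG19* (YOL082W). Per kb these are 1131 and 274.4, a ratio of 4.12 in genes of almost the same length. How far reads of the paralogs were shared in counting is not known. Of the cargo genes, *AMS1* had 810.0 counts per kb and *APE1* had 345.6. *ATG21*, also used in the Cvt pathway, encodes a phosphoinositide-binding relative of Atg18 and had 228.5 counts per kb. *ATG20*, a sorting nexin, had 166.1 and was thus almost exactly at the median gene, whereas its partner *SNX4*, also known as *ATG24*, had 1116 and was 6.72 times as high.

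At the vacuolar end of the pathway, *ATG15*, the lipase that breaks down the autophagic body, had 273.9 counts per kb, and *ATG22*, a transporter that exports amino acids from the vacuole, had 229.7. Both were above the median gene and below the 75th percentile. *ATG26*, a sterol glucosyltransferase that is dispensable for autophagy in *S. cerevisiae*, had 194.0 counts per kb over a long coding sequence of 3597 bases.

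The level of *ATG* genes per kb showed a weak relation to their coding length, which was not tested and depended in part on the length used. Of the 9 genes under 700 coding bases, only *ATG8* and *ATG33* lay above the median gene per kb (22.2%), whereas 53.8% of all genes of that length did. Of the 12 genes of 1500 bases or more, 10 lay above it (83.3%), against 45.9% of all genes of that length. The short members below the median per kb of coding length are *ATG10*, *ATG12*, *ATG16*, *ATG29*, *ATG31*, *ATG38* and *ATG41*. With the effective length, however, *ATG16* and *ATG41* lay above the median gene, at 224.1 and 296.2 counts per kb. *ATG20* and *ATG26*, both of 1500 bases or more, then lay below it, at 185.4 and 205.5. These moves narrow the difference between short and long members. The shares by length were not recalculated in that setting. Across the 34 genes, Spearman's correlation of level per kb with coding length was 0.28, and it was 0.40 without *ATG8*, against -0.08 across all 5276 genes. These values are descriptions across genes of the same libraries, and coding length also enters the level per kb.

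In addition to the 34 genes, 5 further genes count as *ATG* genes in the S288C annotation but appear under other names in the table. *VPS30* and *SNX4* are given above. The 3 others are listed by systematic name. YIL024C, now *ATG45*, had 1113 counts per kb and YBR139W, now *ATG42*, had 643.5, both above the 75th percentile, and YIL156W-B, now *ATG44*, had 107.8 with a mean normalized count of 23.9. Their inclusion would leave *ATG8* as the highest and *ATG10* as the lowest gene.

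Autophagy also uses many genes given here under names other than *ATG*, of which 24 were listed and all had a row. These 24 include *VPS30* and *SNX4*, which were counted above as further *ATG* genes and both lay above the median gene. The median of the 24 was 261.3 counts per kb, close to the 229.1 of the *ATG* genes, and 15 of 24 lay above the median gene. *VPS34* did so narrowly, at percentile 53.7, and with the effective length it fell below the median gene, at 196.5 counts per kb. The highest were the vacuolar hydrolases that digest the cargo. *PRB1*, proteinase B, had 12937 counts per kb and was 3.61 times as high as *ATG8*, or 1.76 times with the effective length. *PEP4*, proteinase A, had 3457 counts per kb. Its order relative to *ATG8* turned with the length used, as *ATG8* over *PEP4* was 1.04 per kb, 1.99 with the effective length and 0.301 by count. *PRC1*, carboxypeptidase Y, had 2404. Among the genes for fusion with the vacuole, the SNARE *YKT6* had 1167 counts per kb, while *VAM3* and *VAM7*, the SNAREs of the vacuole, had 109.1 and 110.8. *CCZ1* and *MON1*, which activate the Rab protein Ypt7, had 51.3 and 95.1, against 219.5 for *YPT7* itself.

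Of 7 regulators of *ATG* transcription, 6 lay above the median gene per kb of coding length, *RPH1* only narrowly at percentile 51.6. This number was not recalculated with the effective length. *UME6*, whose product represses *ATG8* together with Rpd3 and Sin3, had 394.7 counts per kb, and *RPD3* and *SIN3* had 231.8 and 315.4. *PHO23*, a repressor of *ATG9*, had 443.2, and *RPH1*, a histone demethylase that represses several *ATG* genes in growing cells, had 172.8. The activator *GCN4* was the highest of the list at 4825 counts per kb, although its protein level is set mainly by translation. *GLN3*, an activator under nitrogen limitation, had 126.5 and was the 1 regulator below the median gene.

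**Figure D3:**
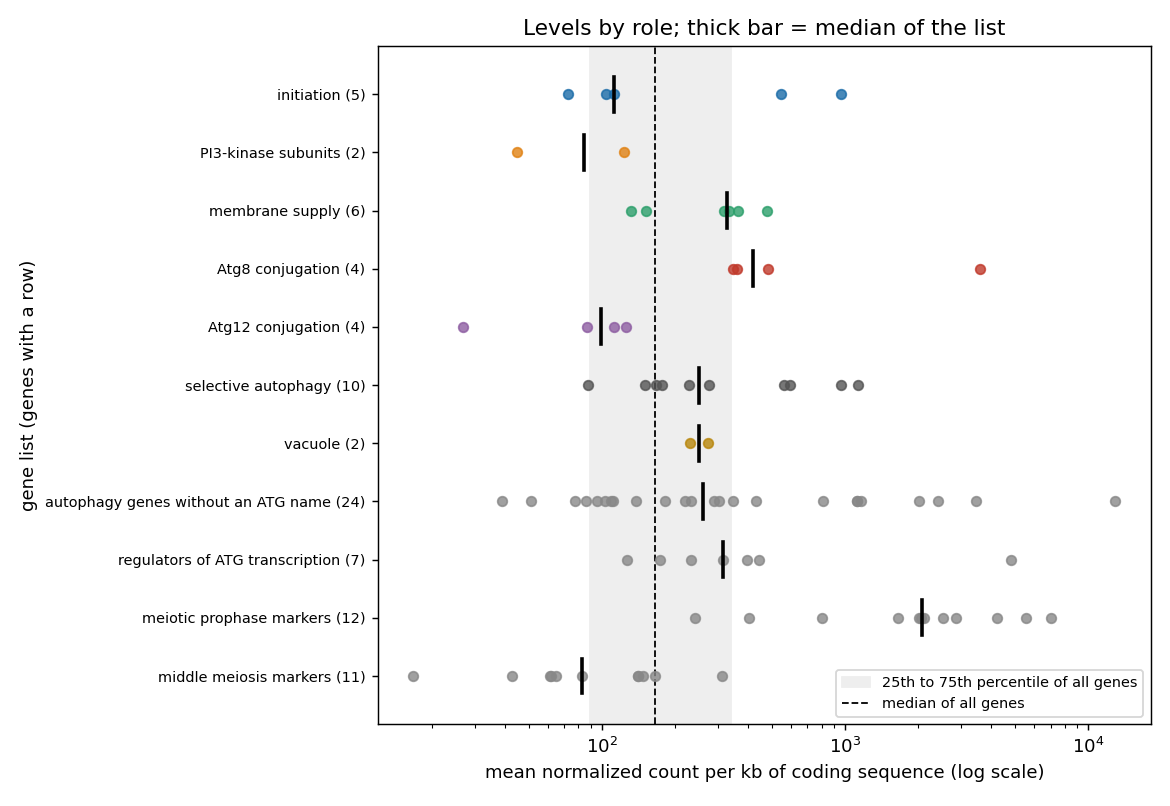
Mean normalized count per kb of coding sequence (log scale) of *ATG* genes by role, of other autophagy genes, of regulators and of meiotic markers; points are genes, thick bars the median of each list, the grey band the 25th to 75th percentile of all genes and the dashed line their median. All 4 genes of the Atg8 system lie above the grey band and the 4 genes that act only in the Atg12 system lie left of the dashed line, while the prophase markers have a median of 2081 counts per kb.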

How the data were processed

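The authors purified poly(A) RNA, made strand-specific libraries and sequenced paired reads. Reads were aligned by the authors to SK1 in the nf-core RNA-seq pipeline and quantified per gene by salmon, after which the authors applied ComBat-Seq and DESeq2. The submitters' processing notes also name Trim Galore and STAR. Versions and batches are not given in the sources used here. The deposited signal is the authors' mean of normalized counts over all 6 libraries, so that batch correction and any difference between the strains are averaged into it. Depth per library, intervals and tests could not be had from it. The other deposited columns hold the authors' comparison of the strains (log2 fold change, its standard error, the Wald statistic, p-value and adjusted p-value) and were not used.

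Rows were matched by systematic name to S288C R64, which gave 5276 of 5297 a coding length (the summed coding segments). As the reads were mapped to SK1, no coordinates or sequences are given, and the planned motif search in promoters was not made. All members were described; those with the 5 highest and 5 lowest levels per kb and the genes that define each role were given their own values. Members and lists were chosen with earlier results of these data known. The percentile step was tested on simulated data. Python 3.11.15, pandas 2.3.3, numpy 2.4.6, scipy 1.17.1 and matplotlib 3.10.9 were used.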

Additional observations from a re-analysis of the deposited data

How the results depend on the processing

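No paired analysis was possible because the table has 1 mean per gene, pooled over both strains. Accordingly, the comparison of the strains, its other count models and filters, and leaving out each replicate were not run. The number of *ATG* genes above the median gene was 21 per kb of coding length. It was 22 without division by length, 21 among rows with a mean normalized count of at least 10, 20 among rows with a gene symbol, and 21 with an effective length (coding length less 200 bases, at least 100). The 21 with the effective length were not all the same genes. *ATG16* and *ATG41* rose above the median gene, and *ATG20* and *ATG26* fell below it. The median percentile of the 34 genes was 62.2 and lay between 60.7 and 68.6 in the same settings, chosen for this value after seeing the data. The highest gene depended on the unit. *ATG8* led the next gene 3.17-fold per kb and 5.69-fold with the effective length, but without division by length *ATG1* led *ATG34* 1.84-fold and *ATG8* was the third. Of the 8 roles, Atg8 conjugation had the highest median or mean in every setting. Without division by length its lead was slight, at 713.4 counts against 698.0 for lipid glycosylation, which is *ATG26* alone. The order of the other roles moved. Of the 8 roles, 3 kept their place without division by length, 3 with geometric means and 6 with the effective length. The initiation, Atg12 conjugation and PI3-kinase roles were among the 4 lowest in all 4 settings. Lengths come from S288C and coding sequence only, so that untranslated regions and SK1 differences are not included. Ratios between genes of unlike length, in particular those of the short *ATG8*, moved with the length used; these recalculations were chosen after seeing the data.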
